A study of Homo sapiens with 6 samples.

Results

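The genes described here build the centromere and the kinetochore and run the spindle assembly checkpoint. They were taken from the deposited gene table as the protein-coding rows named CENP followed by a single letter, together with 32 named kinetochore, checkpoint, chromosomal passenger and shugoshin genes. The rule found 53 genes among the 35856 listed, and all 53 passed the filter on low counts that left 20741 genes for testing. RNA was sequenced from HCCLM3, a human hepatocellular carcinoma cell line with high metastatic capacity. In 3 libraries the cells were given a pcDNA3.1 plasmid that carried the long noncoding RNA LINC00862 (the LINC00862 group). The other 3 libraries are titled NC and were taken as cells given the plasmid without an insert (the Empty group). No other treatment, dose or time was given for either group. Whether the 3 libraries of a group came from separate cultures is not stated, so p-values measure only the spread between these libraries, which may be technical.

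The centromere is the stretch of a chromosome where the histone variant CENP-A replaces histone H3, and the proteins that assemble on it form the kinetochore, which captures spindle microtubules in mitosis. An inner layer binds the CENP-A nucleosome, an outer layer binds the microtubule, and a checkpoint holds back anaphase by keeping CDC20 from the anaphase-promoting complex until every chromosome is attached. Most of these genes are transcribed in a burst before mitosis, so their RNA is low in cells that are not dividing. In RNA from a whole culture, fewer dividing cells and less RNA per dividing cell cannot be told apart.

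Total counts were 58241123 to 68229070 per library, and the counts of single members ranged from 88 to 17299, so the spread between libraries rather than counting set the precision. LINC00862 itself had 11, 21 and 6 counts in Empty and 145, 121 and 76 in LINC00862, and it was higher by 3.22 ± 0.53 on the log2 scale (SE, edgeR adjusted p = 0.000583). The groups also stood apart in their cell type markers. Summed FPKM (fragment counts scaled to gene length and library depth) of 6 epithelial markers was 0.916 to 1.33 in Empty and 233 to 255 in LINC00862, and that of 7 mesenchymal markers was 586 to 650 and 15.2 to 19.7. Most of the mesenchymal sum in Empty was VIM, with a mean of 539 FPKM against 3.77 in LINC00862, while COL1A1 of the same list was higher in LINC00862 (2.43 against 10.6) and COL1A2 was not called. EPCAM had a mean of 0.547 FPKM in Empty and 159.8 in LINC00862. Of the 11 hepatocyte and hepatoma markers, 4 reached 1 FPKM in every Empty library and ALB, APOB, TTR and HNF4A were under 0.1 in each of them, with TTR listed at 0. In the LINC00862 libraries 4 of the 11 also reached 1 FPKM in every library, AFP, APOA1 and HNF4A were under 0.1, and AFP was listed at 0. The sums of this list were 196 to 290 in Empty and 780 to 904 in LINC00862. FGB made a mean of 1.75 and 550.4 of these sums. Of the 10 genes of this list that were tested, 7 were called higher, ALB, APOB, TTR and HNF4A among them. The 2 called lower were SERPINA1 and AFP. Endothelial sums were 1.17 to 1.74 and 4.44 to 5.89, and leukocyte sums 2.13 to 2.58 and 5.34 to 7.17. In each list 1 gene was called higher and 3 were not called. CDH5 of the endothelial list had a mean of 0.403 FPKM in Empty and 4.47 in LINC00862. CD14 of the leukocyte list had 1.69 and 5.59. The labels give both groups as HCCLM3, and these marker levels do not settle whether both hold the same cells. The part of these marker differences in the results below was not tested, and a difference between the cells of the groups cannot be told apart from the treatment in any fold change given here, because both separate the same libraries.

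Nearly the whole set was down-regulated in the LINC00862 libraries. By edgeR's quasi-likelihood test with adjusted p under 0.05, 47 of the 53 members fell and 1, MIS18A, rose. Among all tested genes 64.2% were called in either direction, 29.8% as lower and 34.4% as higher. Of the 47 that fell, 42 were at least 2-fold lower, which held for 20.9% of all tested genes. A fall of at least 4-fold was seen in 24 of them, and its share over all tested genes was not counted. The median log2 fold change was -1.92 over the members and 0.11 over all tested genes, whose quartiles were -0.89 and 1.55. A member at that median stood at 26.4% of its Empty level, and 11.5% of all tested genes had a log2 fold change at or below it. Members called lower ran from 6.33% to 66.6%.

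The libraries showed the same separation before any fit. The members took 0.413%, 0.408% and 0.402% of all counts in Empty and 0.108%, 0.115% and 0.101% in LINC00862. Their summed FPKM was 1095 ± 53.2 in Empty and 265 ± 19.98 in LINC00862 (SD, n = 3 each), and the exact two-sided permutation test gave p = 0.1, the smallest value that 3 against 3 libraries allow. In 48 members all 3 LINC00862 values lay below all 3 Empty values, against 36.6% of all tested genes. In 37 of them the lowest Empty value was at least 2 times the highest LINC00862 value, and in 17 at least 4 times. The shares of all tested genes with such gaps were not counted. The 10 most abundant genes took 8.42% to 11.7% of counts in Empty and 19.4% to 29.2% in LINC00862, so fitted fold changes, which correct for such a shift by TMM scaling, are not the plain quotients of the FPKM values printed beside them.

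Promoters of genes that peak in late cell cycle often carry a cell cycle homology region (CHR, TTTGAA), where the MuvB core of the DREAM and MYBL2 complexes binds, and CCAAT boxes, where NF-Y binds. RefSeq windows of 300 bases (GRCh38.p14, 250 before and 50 after a transcription start) were matched by symbol for 43 of the 53 members and searched for both motifs on both strands. BIRC5, BUB3, CENPH, CENPJ, CENPL, CENPM, KNL1, KNTC1, MIS18A and TTK had no entry. The following stretches of 80 bases lie upstream of the start of 6 members, ending at position -1 in INCENP and -54 in CDC20 and between these in the others, and are shown because each holds a TTTGAA and these genes span several of the roles described below, from the checkpoint to CENP-A itself. Capitals mark complete TTTGAA and CCAAT matches on either strand (TTCAAA and ATTGG are the same motifs read on the other strand). The sequences read 5′ to 3′ on the strand of the gene.
CDC20, chr1:43358848-43358927, plus strand: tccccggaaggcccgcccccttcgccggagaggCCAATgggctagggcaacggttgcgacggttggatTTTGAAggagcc
BUB1B, chr15:40160978-40161057, plus strand: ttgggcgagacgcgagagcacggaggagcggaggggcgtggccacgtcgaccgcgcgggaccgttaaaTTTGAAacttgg
CDCA8, chr1:37692425-37692504, plus strand: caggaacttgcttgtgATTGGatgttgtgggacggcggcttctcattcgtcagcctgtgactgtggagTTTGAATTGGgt
INCENP, chr11:62123931-62124010, plus strand: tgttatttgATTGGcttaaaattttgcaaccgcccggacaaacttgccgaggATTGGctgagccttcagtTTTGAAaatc
PLK1, chr16:23678792-23678871, plus strand: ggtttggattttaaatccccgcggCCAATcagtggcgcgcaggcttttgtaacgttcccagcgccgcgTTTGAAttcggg
CENPA, chr2:26785970-26786049, plus strand: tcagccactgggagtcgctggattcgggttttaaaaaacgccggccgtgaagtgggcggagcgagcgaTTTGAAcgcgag

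Counted from the start, the TTTGAA begins at position -65 in CDC20, -23 in BUB1B and CDCA8, -10 in INCENP, -29 in PLK1 and -18 in CENPA. In CDCA8 its last base is shared with a CCAAT box on the other strand. Over the 43 members, 18 (41.9%) held a TTTGAA in a window, against 14.3% of 11726 tested protein-coding genes, and 28 (65.1%) held a CCAAT, against 43.0%. Both motifs occurred in 12 members (27.9%) and in 5.92% of the tested genes. Counted by window, TTTGAA occurred in 19 of the 49 windows of members (38.8%) and in 15.2% of all 35116 windows, and CCAAT in 65.3% and 34.6%. The 18 members with a TTTGAA had a median log2 fold change of -1.92 and the 25 without it -1.77. These matches are a description of letters, not of bound sites.

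The genes that place CENP-A on chromatin split in direction. CENPA encodes the centromeric histone itself and HJURP its dedicated chaperone, while OIP5 (MIS18-beta) and MIS18A (MIS18-alpha) form the complex that licenses its loading. CENPA (chromosome 2, 26764289 to 26801067, hg38) had 18.8, 20.9 and 17.6 FPKM in Empty and 6.10, 6.66 and 6.67 in LINC00862. The groups did not overlap, and CENPA fell by 1.39 ± 0.15 on the log2 scale, to 38.3% (edgeR, adjusted p = 5.54e-05). SLC35F6 overlaps CENPA on the same strand, with 137% of its counts in Empty and 642% in LINC00862, so strand would not separate reads from the shared stretch and the value of CENPA is uncertain. HJURP had 19.7, 21.1 and 17.1 FPKM in Empty and 5.01, 5.69 and 5.16 in LINC00862, a fall of its level to 30.9% (log2 -1.69 ± 0.15, edgeR adjusted p = 1.17e-05). OIP5 was lower as well, at 25.1% of Empty. MIS18A (chromosome 21, 32268228 to 32279049) was the only member up-regulated. Its FPKM was 10.7, 10.2 and 10.95 in Empty and 15.9, 14.8 and 18.3 in LINC00862, with each LINC00862 library above each Empty library, and it rose to 174% (log2 0.80 ± 0.17, edgeR adjusted p = 0.0024). Its log2 change was 0.66 to 0.90 over the omission of single libraries and kept its call in each. The OIP5 to MIS18A ratio of FPKM was 1.19, 1.26 and 1.05 in Empty and 0.156, 0.1695 and 0.175 in LINC00862. OIP5 shares its locus on the opposite strand with OIP5-AS1 and NUSAP1, whose mean counts exceeded its own in both groups. The library method marked strand with dUTP, but whether counting used it is not given in the sources used here, so the value of OIP5 is uncertain.

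In the constitutive centromere-associated network (CCAN), the inner layer that reads the CENP-A nucleosome, 12 of 15 genes fell and 3 were not called. Their median on the log2 scale was -1.301. CENPI, part of the CENP-H/I/K/M group that links CENP-A chromatin to the outer kinetochore, changed most. CENPI (chromosome X, 101098218 to 101163681) had 8.38, 4.98 and 4.33 FPKM in Empty and 0.432, 0.461 and 0.3002 in LINC00862. Its level fell to 7.71% (log2 -3.70 ± 0.27, edgeR adjusted p = 4.05e-06), and the lowest count of any member, 88, was that of CENPI in a LINC00862 library. CENPK of the same group had 17.6, 18.3 and 11.97 FPKM against 2.18, 2.39 and 2.47, which was 16.8% of Empty (log2 -2.57 ± 0.19, edgeR adjusted p = 4.82e-06). CENPH and CENPM were lower too, at 23.4% and 22.5%.

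CENPW and CENPT are histone-fold partners in the CENP-T/W/S/X complex, which also recruits the NDC80 complex, and their falls differed in size. CENPW (chromosome 6, 126340115 to 126348875) had 44.1, 70.1 and 67.6 FPKM in Empty and 6.11, 6.74 and 5.17 in LINC00862. It fell by 3.18 ± 0.24 on the log2 scale, to 11.1% (edgeR, adjusted p = 4.96e-06). CENPT was at 66.6% of Empty (12.3, 16.5 and 15.1 against 8.12, 8.78 and 9.12 FPKM, log2 -0.59 ± 0.18, edgeR adjusted p = 0.0178), the smallest called fall of any member. CENPX, the partner of CENPS, was at 27.4%, whereas CENPS had 6.69, 8.21 and 7.71 FPKM in Empty and 7.68, 6.38 and 5.67 in LINC00862, overlapped between groups and was not called (log2 -0.03 ± 0.19, edgeR adjusted p = 0.896). A read-through transcript of CENPS and CORT, listed separately, had 5.43% of the counts of CENPS in Empty and 4.81% in LINC00862. Within libraries, the CENPT to CENPW ratio was 0.278, 0.236 and 0.224 in Empty and 1.33, 1.302 and 1.76 in LINC00862.

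Among the remaining CCAN genes, CENPO, CENPQ, CENPU and CENPC, the scaffold that bridges CENP-A and the outer layer, were at 40.0% to 48.1% of Empty. CENPP, a partner of CENPO, was at 57.4%, with 2.05, 2.32 and 1.904 FPKM in Empty and 1.17, 0.599 and 1.37 in LINC00862. Its adjusted p of 0.0458 (edgeR) was the largest among the called members, and it lost its call when any library other than LINC00862 replicate 3 was left out, with log2 changes of -1.10 to -0.50 over the 6 omissions. It also lost its call with RLE or upper quartile scaling and when every gene with at least 1 count was kept. CENPT lost its call without Empty replicate 2 (-0.48), LINC00862 replicate 1 (-0.53) or LINC00862 replicate 2 (-0.56). CENPN and CENPL, which together contact the CENP-A nucleosome, were not called. CENPN had 8.01, 7.76 and 7.14 FPKM against 5.99, 6.003 and 4.50, so that its groups did not overlap while its fitted change was -0.31 ± 0.14 (edgeR adjusted p = 0.0931). CMC2 overlaps CENPN on the opposite strand, with 79.6% of its counts in Empty and 221% in LINC00862. A same-strand gene, AC092718, had 18.7% and 15.1%, so the value of CENPN is uncertain. CENPL had 4.46, 3.31 and 2.66 FPKM against 3.01, 2.99 and 2.76, with the groups overlapping and a fitted change of -0.06 ± 0.18 (edgeR adjusted p = 0.772).

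All 4 subunits of the NDC80 complex, the rod that grips the microtubule, were down-regulated. NDC80 (chromosome 18, 2571557 to 2616635) had 26.4, 26.5 and 22.5 FPKM in Empty and 4.35, 4.17 and 4.46 in LINC00862. It fell to 19.5% (log2 -2.36 ± 0.15, edgeR adjusted p = 1.7e-06), and NUF2, SPC24 and SPC25 were at 21.2%, 17.6% and 24.95%. KNL1, the scaffold on which BUB1 and BUBR1 load, had 6.26, 3.64 and 3.17 FPKM in Empty and 0.830, 0.615 and 0.545 in LINC00862. Empty replicate 1 stood above the other Empty libraries, yet all 3 were well above the LINC00862 libraries, and KNL1 fell to 17.5% (log2 -2.52 ± 0.25, edgeR adjusted p = 2.96e-05). ZWINT, which binds KNL1, was at 19.5%.

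The 4 subunits of the MIS12 complex, which joins the inner layer to NDC80 and KNL1, did not move together. DSN1 and PMF1 fell to 37.2% and 29.4% of Empty. MIS12 (chromosome 17, 5486285 to 5490814) had 8.68, 8.73 and 7.03 FPKM in Empty and 8.49, 9.80 and 7.45 in LINC00862, and its fitted change was 0.25 ± 0.15 (edgeR adjusted p = 0.175). NSL1 had 1.76, 1.56 and 1.36 FPKM against 1.41, 1.47 and 1.62, with a fitted change of 0.13 ± 0.16 (edgeR adjusted p = 0.498). Both overlapped between groups. Over 15 alternative fits NSL1 was at -0.05 to 0.34 and changed sign, and MIS12 stayed above 0 and was called higher with upper quartile scaling (0.46, edgeR adjusted p = 0.0201). Inside each library the MIS12 to DSN1 ratio was 0.295, 0.271 and 0.234 in Empty and 0.778, 0.8503 and 0.923 in LINC00862, and that of NSL1 to PMF1 was 0.138, 0.0632 and 0.0465 against 0.228, 0.206 and 0.362. Some reads of PMF1 may belong to the PMF1-BGLAP read-through transcript on the same strand, whose counts were 11.7% of those of PMF1 in Empty and 2.91% in LINC00862.

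The corona and motor genes and the SKA complex were all down-regulated, by different amounts. CENPE, the kinesin that carries chromosomes to the metaphase plate, had 10.04, 6.86 and 5.63 FPKM in Empty and 0.925, 1.008 and 0.894 in LINC00862. It fell to 14.3% (log2 -2.80 ± 0.20, edgeR adjusted p = 3.09e-06), while CENPF, a large coiled-coil protein of the corona, was at 58.5%. KNTC1 (ROD) and ZWILCH, of the RZZ complex that brings dynein and MAD1 to unattached kinetochores, were at 48.3% and 50.5%. ZWILCH overlaps the ribosomal protein gene RPL4 on the opposite strand, whose counts were far above its own in both groups. The SKA complex strengthens the hold of NDC80 on depolymerising microtubules, and SKA2, SKA3 and SKA1 were at 20.4%, 29.8% and 33.4% of Empty.

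All 7 spindle checkpoint genes fell, and their median on the log2 scale was -2.54, the lowest of the roles. CDC20, the activator of the anaphase-promoting complex that the checkpoint holds in check, showed the largest fall of any member. CDC20 (chromosome 1, 43358981 to 43363203) had 88.1, 94.5 and 114 FPKM in Empty, the highest mean of any member there, and 6.60, 6.31 and 3.92 in LINC00862. It fell by 3.98 ± 0.23 on the log2 scale, to 6.33% (edgeR, adjusted p = 1.01e-06). MAD2L1 (MAD2), the protein that binds CDC20 in the mitotic checkpoint complex, had 14.7, 15.8 and 15.3 FPKM against 3.57, 3.96 and 3.20 and was at 26.3% of Empty (log2 -1.92 ± 0.14, edgeR adjusted p = 4.35e-06). Per MAD2L1, CDC20 was at a ratio of 5.99, 5.97 and 7.47 in Empty and of 1.85, 1.59 and 1.23 in LINC00862. MAD1L1 (MAD1), which presents MAD2 at the kinetochore, had 2.46, 2.50 and 4.06 FPKM in Empty and 0.436, 0.803 and 0.568 in LINC00862. Its level fell to 22.7% (log2 -2.14 ± 0.30, edgeR adjusted p = 0.000242), and a noncoding gene on the same strand within its bounds, AC069288, had 53.7% of its counts in Empty and 235% in LINC00862.

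BUB1B (BUBR1) and BUB3 complete the mitotic checkpoint complex. BUB1B (chromosome 15, 40161023 to 40221038) had 25.7, 19.2 and 18.02 FPKM in Empty and 3.06, 3.24 and 2.60 in LINC00862, 16.1% of Empty (log2 -2.64 ± 0.15, edgeR adjusted p = 1.09e-06). BUB3 had the narrowest fit of the members, with 30.2, 28.1 and 28.9 FPKM against 3.97, 4.19 and 3.87, and was at 15.6% (log2 -2.68 ± 0.13, edgeR adjusted p = 4.13e-07). Their kinase partner BUB1 had 19.9, 13.7 and 12.2 FPKM in Empty and 4.52, 4.86 and 3.27 in LINC00862. It fell to 31.3% (log2 -1.68 ± 0.19, edgeR adjusted p = 6.05e-05), less than BUB1B in the same libraries. The ratio of BUB1B to BUB1 was 1.29, 1.40 and 1.48 in Empty and 0.676, 0.667 and 0.796 in LINC00862, so their order in FPKM turned. In counts, which are not scaled to gene length, it was 0.912, 0.994 and 1.04 in Empty and 0.479, 0.474 and 0.565 in LINC00862. PAK6 overlaps BUB1B on the same strand, with 0.043% of its counts in Empty and 37.2% in LINC00862. TTK (MPS1), the kinase that starts checkpoint signalling, had 17.9, 14.8 and 10.9 FPKM against 2.20, 2.41 and 1.98 and was at 17.1% (log2 -2.54 ± 0.18, edgeR adjusted p = 3.14e-06).

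The chromosomal passenger complex, which corrects faulty attachments, and the shugoshins, which guard centromeric cohesion, were likewise down-regulated. The 4 passenger genes were at 17.4% to 24.3% of Empty. AURKB, the Aurora B kinase, had 39.0, 54.8 and 58.9 FPKM in Empty and 10.4, 10.1 and 8.81 in LINC00862. It fell to 21.5% (log2 -2.22 ± 0.21, edgeR adjusted p = 1.89e-05). BIRC5 (survivin), which docks the complex on centromeric chromatin, had 46.6, 49.8 and 63.0 FPKM against 8.65, 10.1 and 6.18 and was at 17.4% (log2 -2.52 ± 0.21, edgeR adjusted p = 9.2e-06). CDCA8 (borealin) and the scaffold INCENP were at 19.7% and 24.3%. SGO2 had 10.3, 6.75 and 5.36 FPKM in Empty and 0.891, 0.898 and 0.809 in LINC00862, 13.3% of Empty (log2 -2.91 ± 0.22, edgeR adjusted p = 4.55e-06), and its paralog SGO1 was at 32.3%. In FPKM SGO1 was below SGO2 in the Empty libraries, with ratios of 0.458, 0.725 and 0.842, and above it in the LINC00862 libraries, with 1.42, 1.58 and 1.65. In counts SGO1 was below SGO2 in every library, with 0.272, 0.429 and 0.499 in Empty and 0.843, 0.941 and 0.980 in LINC00862. KCTD18 overlaps SGO2 on the opposite strand, with 12.8% of its counts in Empty and 253% in LINC00862. PLK1, the mitotic kinase that primes many of these proteins, had 30.1, 26.7 and 28.3 FPKM against 7.37, 8.01 and 4.68 and was at 26.4% (log2 -1.92 ± 0.18, edgeR adjusted p = 2e-05).

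The CENP name is also carried by genes with other main roles. CENPV, a protein of the central spindle and of pericentromeric chromatin, had 9.03, 10.5 and 12.7 FPKM in Empty and 0.736, 1.11 and 0.757 in LINC00862. It fell to 9.13% (log2 -3.45 ± 0.24, edgeR adjusted p = 3.24e-06), while PIGL, which overlaps it on the opposite strand, had 40.9% of its counts in Empty and 306% in LINC00862. CENPB, which binds a motif of alpha satellite DNA, and CENPJ (CPAP), a centriole assembly factor, were at 37.8% and 53.1%. Of the 53 members, 27 overlap another listed gene, and in 19 such a gene had over 10% of the member's counts in at least 1 group.

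**Figure D1:**
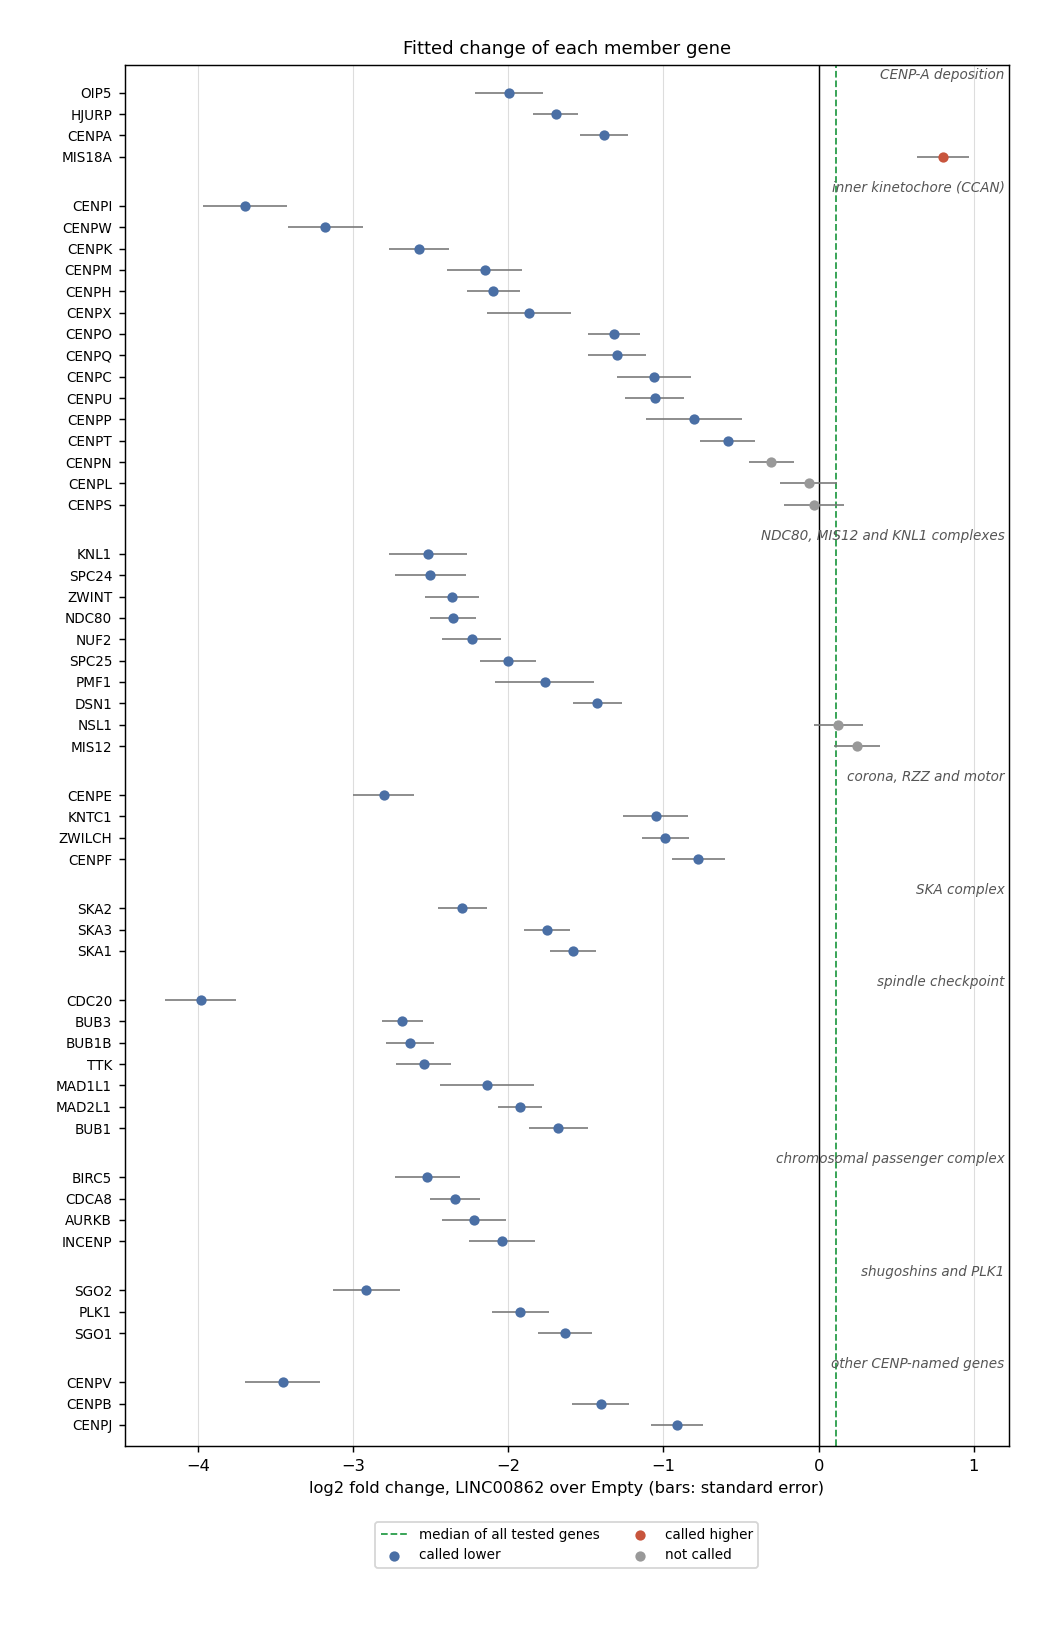
Fitted log2 fold change (LINC00862 over Empty, horizontal axis) of each member with its standard error, grouped by role. The 47 members called lower are blue, MIS18A is red, the 5 members not called are grey, and the dashed line marks the median of all tested genes at 0.11.

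The ratios within libraries, which do not depend on how libraries were scaled, were examined for 17 pairs of members from the same complex or step. In 10 pairs the groups did not overlap, 5 with a higher and 5 with a lower ratio in LINC00862. The share of pairs of other genes without overlap was not counted. For each of these 10 the exact two-sided permutation test gave p = 0.1, the smallest it can give, and 0.17 after Benjamini-Hochberg adjustment over the 17 pairs, so that none could pass 0.05 in this design. Besides the 7 such pairs given above, CENPH to CENPI was 2.24, 4.59 and 5.27 against 10.6, 10.7 and 13.1, SPC24 to SPC25 was 1.14, 1.22 and 1.49 against 0.823, 0.921 and 1.02, and HJURP to CENPA was 1.04, 1.013 and 0.971 against 0.822, 0.853 and 0.774. In the other 7 pairs the groups overlapped. NUF2 to NDC80, partners in a dimer, had ratios of 0.854, 0.989 and 0.871 in Empty and 0.815, 1.12 and 1.02 in LINC00862, and BIRC5 to CDCA8 had 1.26, 1.58 and 1.79 against 1.29, 1.499 and 1.31. The pairs AURKB to INCENP, SKA1 to SKA3, ZWINT to KNL1, MAD1L1 to MAD2L1 and CENPC to CENPA overlapped in the same way.

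Other genes of the pathway, taken as lists, moved mostly the same way. Of 16 further kinetochore and checkpoint genes, 15 were called lower and none higher, with a median log2 fold change of -1.40, beside the 29.8% of all tested genes that were lower. SPDL1 (Spindly), the dynein adaptor at kinetochores, had 29.4, 25.7 and 21.1 FPKM in Empty and 2.60, 2.58 and 2.45 in LINC00862 (log2 -3.13 ± 0.15, edgeR adjusted p = 3.68e-07). TPX2, which activates Aurora A on the spindle, changed by -2.44 ± 0.15. MAD2L1BP (p31comet), which silences the checkpoint, was the gene of this list that was not called (0.29 ± 0.18, edgeR adjusted p = 0.187). Among 20 genes of the anaphase-promoting complex and separase, the machinery downstream of CDC20, 15 were lower and 1 higher, with a median of -0.90. The largest falls there were those of FBXO5 (EMI1), the inhibitor of the complex (-3.36 ± 0.18), and of UBE2C, its ubiquitin-conjugating enzyme (-3.05 ± 0.24). The subunit gene ANAPC16 was called higher (0.42 ± 0.16, edgeR adjusted p = 0.0461), a call lost when any library other than Empty replicate 3 was left out (0.30 to 0.50). Of 17 cohesin and condensin genes, 16 were lower and none higher (median -1.63), led by SMC4 (-2.75 ± 0.25) and SMC3 (-2.33 ± 0.16).

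The regulators of G2/M transcription were less uniform, with 14 of 21 genes lower, 2 higher and a median of -0.71. Of all tested genes, 29.8% were called lower and 34.4% higher. MYBL2, the activator that joins MuvB at CHR promoters, had 93.3, 89.5 and 118 FPKM in Empty and 6.75, 7.59 and 4.95 in LINC00862, and changed by -3.80 ± 0.21 on the log2 scale (edgeR adjusted p = 6.89e-07). FOXM1, which follows MYBL2 at the same promoters, had 41.5, 31.7 and 39.3 FPKM against 11.6, 10.97 and 7.96 (log2 -1.71 ± 0.16, edgeR adjusted p = 2.23e-05). E2F7, a repressor that is itself cell cycle regulated, was lower by -2.52 ± 0.26. E2F5 and E2F4, the E2F proteins that work with the pocket proteins in resting cells, were higher by 2.67 ± 0.28 and 0.44 ± 0.15. The call of E2F4 was lost without Empty replicate 2 (0.42) or any LINC00862 library (0.43 to 0.45). The 11 proliferation markers were all lower, with a median of -2.22 beside -1.92 for the members. MKI67 had 34.0, 18.6 and 18.5 FPKM in Empty and 2.18, 2.00 and 1.801 in LINC00862 (log2 -3.38 ± 0.23, edgeR adjusted p = 2.59e-06), and TYMS, thymidylate synthase, changed by -3.20 ± 0.16.

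Within groups, the members varied by a median coefficient of variation of 14.9% in Empty and 11.1% in LINC00862, and 32 of the 53 varied more in Empty. The Empty spread went with transcript length and GC content. Over the 53 members, the deviation of Empty replicate 1 from the mean of the other Empty libraries had a correlation of r = 0.72 (Spearman's rho 0.69) with the length of the longest coding transcript in GENCODE, and over 10264 tested protein-coding genes r = 0.70. With the GC content of the same transcripts, r over the members was -0.51 for Empty replicate 1 and 0.69 for Empty replicate 3, and over all those genes -0.48 and 0.56. These are descriptions across genes, which share the library and are not independent. Of the 18 members under 2000 bases, such as CENPW and CENPX, Empty replicate 1 was the lowest Empty library in 15 and the highest in 0, while of the 11 members of at least 4000 bases, such as KNL1 and CENPE, it was the highest in 7 and the lowest in 3. In the 3 LINC00862 libraries the correlation with length lay between -0.18 and 0.12. Leaving Empty replicate 1 out moved the log2 fold changes by at most 0.30 in either direction, from -0.30 in PMF1 to 0.29 in KNL1. Across members the fold change itself showed little relation to length (rho 0.06) or GC content (rho 0.04), and a correlation of -0.41 with the Empty FPKM, which shares its libraries with the fold change.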

How the data were processed

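The authors deposited 1 table with read counts and FPKM per gene for each of the 6 libraries, without pooling. The submitters' processing notes name cutadapt 1.9, HISAT2 2.0.4, UMI-tools, StringTie 1.3.4d, DESeq2, edgeR and hg38. How counting treated strand and molecular identifiers is not given in the sources used here. Groups came from the sample labels.

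Counts were tested with edgeR 4.0.16 (R 4.3.3, filterByExpr, TMM, quasi-likelihood test, Benjamini-Hochberg adjustment over all 20741 genes, threshold 0.05). FPKM served for levels, overlaps and ratios. Alternatives were DESeq2 1.42.0, other scalings and filters, limma 3.58.1 on log2 FPKM with pseudocounts of 1 and 0.1, a test against a fold of 2, a replicate block and leaving out each library. The members, pathway lists and pairs were chosen with earlier results of these data known. Full values are given for the 10 largest called falls, the 1 called rise and 13 anchor genes (CENPA, HJURP, NDC80, KNL1, BUB1, BUB1B, MAD2L1, MAD1L1, AURKB, BIRC5, CDC20, PLK1 and TTK), for members not called, and in each pathway list for up to 2 called genes with the largest rise and fall, with MKI67 and FOXM1. CENPP and CENPT are given in full because of their sensitivity, seen in the values. Intervals and errors cover only the spread between libraries. The level of 1 marker gene is not reported here.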

Additional observations from a re-analysis of the deposited data

How the results depend on the processing

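DESeq2 and the replicate block changed the call or direction of 0 of the 53 members, and with the block 48 members were called and the median log2 fold change was -1.92. Deviations of same-numbered libraries correlated at -0.05, -0.03 and -0.01, so no pairing by replicate number was seen. These values cannot tell whether same-numbered libraries were prepared together. Over the 15 alternatives 38 members, all called lower, kept their direction and call. The median over members was -1.71 with upper quartile scaling (0.32 over all tested genes), -2.07 by library size only, and -1.69 and -2.07 by limma on log2(FPKM + 1) and log2(FPKM + 0.1). Leaving out single libraries gave medians of -1.996 to -1.78, 46 to 48 called members, 45 to 47 lower, and 2.91 to 3.83 for LINC00862. Members called higher numbered 2 with upper quartile scaling, which added MIS12 (0.46, edgeR adjusted p = 0.0201), and 0 in the test against a fold of 2, where 38 were called lower. Direction turned in 3 members that were not called. CENPL reached 0.15 with upper quartile scaling and -0.19 to 0.10 over the omissions. CENPS reached 0.018 with RLE scaling, 0.18 with upper quartile scaling and -0.15 to 0.048 over the omissions. NSL1 was at -0.046 by library size only and at -0.032 and -0.049 by limma with pseudocounts of 1 and 0.1. CENPN was called lower by library size only (-0.46) and by both limma fits, CENPT lost its call with upper quartile scaling, and CENPP with upper quartile scaling (edgeR adjusted p = 0.136), RLE scaling (0.0572) and every gene with at least 1 count (0.0634). Of 15 named genes outside the members, 12 kept call and direction throughout, and MAD2L1BP was called higher with upper quartile scaling (0.50). ANAPC16 and E2F4 lost their calls with the block (0.43 and 0.45) and by library size only (0.26 and 0.28). Both also lost them when every gene with at least 1 count was kept, in both limma fits and in the test against a fold of 2. The cause of these changes was not tested. Ratios from counts gave the same overlap as FPKM in 17 of 17 pairs. The turns of order given for BUB1B to BUB1 and SGO1 to SGO2 were in FPKM and were not the same in counts. With 3 libraries a group, single-value permutation tests could not reach 0.05.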
